A study of Mus musculus with 6 samples.

Results

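The 8 genes described here encode enzymes that make serine and move its carbon into folate: Phgdh, Psat1, Psph, Shmt1, Shmt2, Mthfd1, Mthfd2 and Aldh1l2. They were taken by symbol, and each matched 1 of the 55385 genes counted. RNA from 6 mouse livers was sequenced. Optn-/- mice (replicates 4 and 5) and wild-type mice (replicates 1 and 4) had received acetaminophen (APAP) intraperitoneally at 500 mg per kg, and wild-type controls (replicates 3 and 6) had received 200 µL of phosphate-buffered saline. All mice were C57BL/6 animals aged 6 weeks, and all livers were taken 6 h after injection. Optn encodes optineurin, an autophagy receptor for damaged mitochondria. The labels name the genotype as Optn-/- without saying how the allele was made, and knockout mice given saline were not analysed here, so the effect of the genotype alone cannot be told apart from its effect under the drug. With 2 mice per group and nothing in the labels on litters or cages, p-values measure only the spread between these samples.

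Serine is made from the glycolytic intermediate 3-phosphoglycerate in a short chain, in which PHGDH oxidizes it, PSAT1 transfers an amino group from glutamate and PSPH removes the phosphate. Serine hydroxymethyltransferase then splits serine into glycine and a carbon unit carried by folate, with SHMT1 acting in the cytosol and SHMT2 in mitochondria. MTHFD1 in the cytosol and MTHFD2 in mitochondria interconvert the folate-bound units between oxidation states, and ALDH1L2 oxidizes the formyl form inside mitochondria with production of NADPH. The units feed purine, thymidylate and methionine synthesis, and the glycine feeds glutathione, the conjugation partner of the reactive acetaminophen metabolite. Shmt1 and Mthfd1 are therefore the cytosolic counterparts within a set that is otherwise of serine synthesis and mitochondria. In mammals several of these genes are known targets of ATF4, the transcription factor of the integrated stress response.

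On the GRCm38 assembly the serine synthesis genes are Phgdh (ENSMUSG00000053398) at chr3:98313170-98339990, Psat1 (ENSMUSG00000024640) at chr19:15904678-15947337 and Psph (ENSMUSG00000029446) at chr5:129765558-129787449, all on the minus strand. The hydroxymethyltransferase genes are Shmt1 (ENSMUSG00000020534) at chr11:60788104-60811265 and Shmt2 (ENSMUSG00000025403) at chr10:127517123-127522444, also on the minus strand. The folate enzymes are Mthfd2 (ENSMUSG00000005667) at chr6:83305691-83317606 and Aldh1l2 (ENSMUSG00000020256) at chr10:83487450-83534140 on the minus strand and Mthfd1 (ENSMUSG00000021048) at chr12:76255298-76319803 on the plus strand.

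Libraries held between 59143418 and 77292216 counts. The 8 hepatocyte markers (Alb, Apoa1 and others) were all present and summed to 97567 and 128400 CPM (counts scaled to the library total) in knockout APAP livers, 138250 and 134470 in wild-type APAP livers and 118510 and 123300 in saline livers. Optn had an FPKM (fragments scaled to gene length and library size) of 0.32 and 0.46 in knockout livers, 9.17 and 9.19 in wild-type APAP livers and 20.95 and 18.73 in saline livers. Skeletal muscle markers summed to 50.4 to 77.0 CPM in both wild-type APAP libraries and saline replicate 3, against 0.53 to 0.96 CPM in the other 3 libraries. Intestinal markers (8 genes) summed to 49.1 and 62.0 CPM in knockout APAP livers, 31.1 and 28.8 in wild-type APAP livers and 59.0 and 65.7 in saline livers, with Fabp2 the highest of them in every library. Of these, Muc2, Clca1 and Zg16 stood at 2.89 to 6.83 CPM in each of the 3 libraries without muscle markers, against at most 0.068 CPM in each of the 3 libraries with them. This division, called the library set below, holds both treated wild-type mice on one side and both knockout mice on the other, and only the controls lie on both, so between treated genotypes the set and the genotype can be told apart only through the controls. Neuron markers (8 genes) summed to 127 CPM in wild-type APAP replicate 4, against 6.44 to 14.4 CPM in the other libraries.

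In wild-type liver, acetaminophen was followed by higher transcript levels of serine synthesis and of the mitochondrial enzyme Mthfd2, and by a lower level of the cytosolic Shmt1. Psat1 rose 19.7-fold, Mthfd2 17.8-fold and Psph 3.08-fold, while Shmt1 fell to 0.542 of its saline level (edgeR, n = 2 mice per group). Shmt2 and Mthfd1, the most abundant mitochondrial and cytosolic enzymes of the set after treatment, did not pass the test in wild type. Tests were run on the 11677 genes whose mean FPKM reached 0.5, at an adjusted p under 0.05, and 6 of the 8 genes reached that level; 3 rose and 1 fell, where 14.3% of all tested genes passed in either direction, 8.36% upward and 5.92% downward. Psat1 and Mthfd2 lay under 0.5 FPKM in saline and entered the test through the treated livers, so that count carries no weight of its own. Without any filter on level all 8 could be tested, and 4 rose and 1 fell, where 7.2% of 27227 genes passed, 4.33% upward and 2.88% downward. Added to the filtered fit, a term for the library set left 3 genes that rose and 0 that fell, against 6.95% of all tested genes, 4.9% upward and 2.06% downward. Under total-count scaling 3 rose and 3 fell, where 18.8% of all tested genes passed, 6.17% upward and 12.6% downward. Without saline replicate 3 only Psat1 and Mthfd2 passed, 2 of the 6, against 4.23% of all tested genes.

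**Figure D1:**
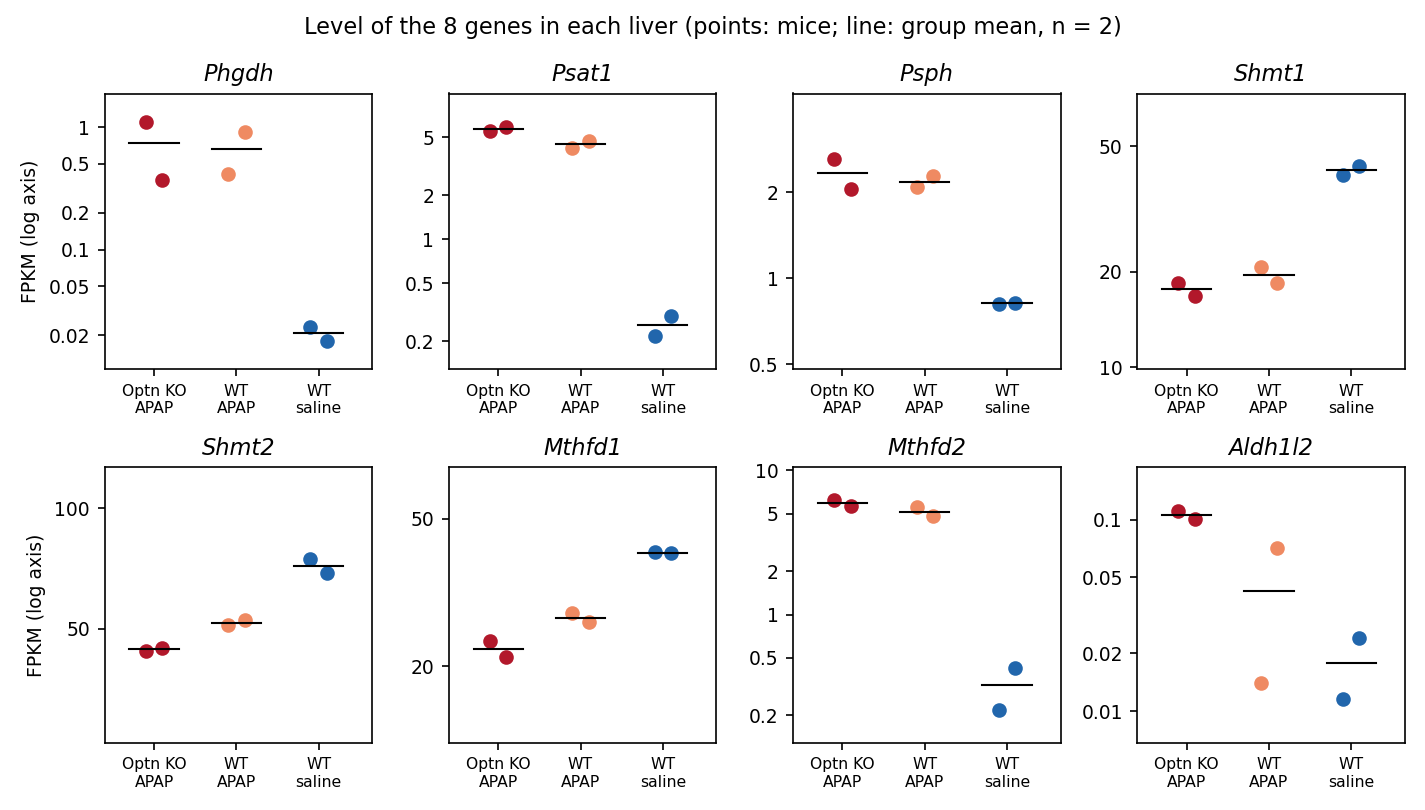
FPKM of each of the 8 genes (log axis, a separate scale per panel) in Optn knockout APAP, wild-type APAP and wild-type saline livers, with 1 point per mouse and a line at the mean of the 2. Psat1, Psph, Phgdh and Mthfd2 lie higher in all 4 treated livers than in both saline livers, and Shmt1, Shmt2 and Mthfd1 lie lower in all 4.

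Phgdh, the entry enzyme of serine synthesis, was almost unexpressed in saline liver. It had 231 and 62 counts in knockout APAP livers, 74 and 174 in wild-type APAP livers, and 4 in each saline liver, or an FPKM of 1.104 and 0.37, 0.42 and 0.90, and 0.023 and 0.018 in the same order. All treated livers were above both controls, and the treated livers differed among themselves by more than counting error (58.1 to 92.9 for the 74 counts and 149 to 202 for the 174 counts, exact Poisson 95% intervals). Pooled counts gave a CPM ratio of 30.5 for wild-type APAP over saline, with an exact binomial 95% interval of 15.3 to 71.5 that covers counting error only. Its mean FPKM was below the filter. In the edgeR fit without a filter it was higher in wild-type APAP than in saline livers by 5.005 ± 0.83 on the log2 scale (SE, adjusted p = 0.00595). That call ended with a term for the library set (adjusted p = 0.0956), without saline replicate 3 (0.09) or 6 (0.0948), and in limma on log2(FPKM + 0.5), where the value was 1.12 (adjusted p = 0.186).

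Phgdh is also strongly expressed by astrocytes, and wild-type APAP replicate 4, with the higher Phgdh of its group, held the neural traces. The glial markers Gfap and Slc1a3 stood at 7.16 and 8.39 CPM in that library, against at most 0.40 and 0.41 CPM in the others, and Mog was at 0 in every library but that one. Summed over all 10 glial markers, the level was 30.4 and 31.4 CPM in knockout APAP livers, 38.7 and 150 in wild-type APAP livers and 213 and 184 in saline livers, most of the last from Slc1a2. The part of these traces in the Phgdh values was not tested. Without wild-type APAP replicate 4 the Phgdh difference was 4.42 ± 0.80 on the log2 scale (edgeR adjusted p = 0.011).

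Psat1, the aminotransferase of the middle step, went up in every treated liver. Its FPKM was 5.50 and 5.87 in knockout APAP livers, 4.23 and 4.75 in wild-type APAP livers and 0.22 and 0.30 in saline livers. Every treated liver stood far above both controls, and the knockout pair stood slightly above the wild-type pair. The fitted rise in wild type was 4.30 ± 0.20 on the log2 scale (SE, edgeR adjusted p = 0.000968), and it held its call in all 14 alternatives run, with an adjusted p of at most 0.0103.

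Psph, the phosphatase that ends the chain, rose less than the enzyme before it. It had an FPKM of 2.62 and 2.06 in knockout APAP livers, 2.09 and 2.28 in wild-type APAP livers and 0.815 and 0.819 in saline livers. The control values were almost equal, and no treated liver overlapped them. The rise in wild type was 1.62 ± 0.20 (log2, edgeR adjusted p = 0.0087), with an adjusted p of 0.0511 without saline replicate 3 at nearly the same size (1.64). Exons of Psph share 452 of 4329 bases with the opposite-strand gene Cct6a, a chaperonin subunit, and use of strand in the counting is not given in the sources used here. Cct6a had 4730 and 4332 counts in knockout APAP livers, 5173 and 5306 in wild-type APAP livers and 6046 and 6354 in saline livers. The part of its reads in the Psph counts was not tested.

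Because Psat1 rose more than Psph, the order of the last steps turned over. The FPKM ratio of Psat1 to Psph was 2.10 and 2.85 in knockout APAP livers, 2.02 and 2.09 in wild-type APAP livers and 0.269 and 0.363 in saline livers. In saline liver Psph was thus the higher transcript per length, and in all 4 treated livers Psat1 was. These ratios were not tested, since the smallest two-sided p that an exact permutation allows with 2 mice per group is 0.333.

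By FPKM both hydroxymethyltransferase transcripts stood lower in treated livers, of which only Shmt1 passed the test in wild type. Shmt1, the cytosolic form, had an FPKM of 18.5 and 16.7 in knockout APAP livers, 20.7 and 18.4 in wild-type APAP livers and 40.6 and 43.1 in saline livers. Treated and control livers were clearly apart. The log2 fold change in wild type was -0.88 ± 0.14 (edgeR adjusted p = 0.0155), but the call did not hold with a term for the library set (-0.86 ± 0.19, adjusted p = 0.0657), without wild-type APAP replicate 4 (-0.77, 0.0606), or without saline replicate 3 (-0.91, 0.07) or 6 (-0.88, 0.061). Shmt1 shares 184 of its 3883 exonic bases with Smcr8 on the other strand, a gene with 1214 to 1730 counts per library.

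Shmt2, the mitochondrial form and the most abundant of the 8 transcripts in every library, had an FPKM of 44.0 and 44.8 in knockout APAP livers, 51.0 and 52.5 in wild-type APAP livers and 74.6 and 68.9 in saline livers. The groups formed 3 separate steps without overlap. In wild type the difference from saline was -0.26 ± 0.12 (log2, edgeR adjusted p = 0.183, 95% interval -0.55 to 0.02). It passed only where library totals set the scale: with total counts it was -0.48 (edgeR adjusted p = 0.0355) and in limma on deposited FPKM -0.47 (adjusted p = 0.035). Total-count scaling also moved the median of all tested genes to -0.19 in this comparison, against 0.03 in the fit used here, and values of Shmt2 and Mthfd1 are to be read against that shift.

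The Shmt2 to Shmt1 ratio of FPKM was 2.38 and 2.67 in knockout APAP livers, 2.46 and 2.85 in wild-type APAP livers and 1.84 and 1.599 in saline livers. By FPKM both transcripts were lower after treatment, though Shmt2 did not pass the test in wild type. Shmt1 was lower by more, so the mitochondrial form took a larger share in all 4 treated livers. The ratio carries no scaling between libraries.

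Among the folate enzymes, Mthfd2 was higher and Mthfd1 lower in all 4 treated livers than in both controls. Mthfd2, a mitochondrial enzyme known to be low in most adult tissues and high in embryonic and dividing cells, had an FPKM of 6.20 and 5.63 in knockout APAP livers, 5.54 and 4.81 in wild-type APAP livers and 0.22 and 0.43 in saline livers. The treated livers lay close together, and the controls, with 52 and 127 counts, differed more between themselves in relative terms. The rise in wild type was 4.16 ± 0.33 on the log2 scale (edgeR adjusted p = 0.00273) and kept its call in all 14 alternatives (adjusted p at most 0.0155). All 8 dividing-cell markers were detected, and they summed to 34.3 and 34.2 CPM in knockout APAP livers, 35.3 and 38.1 in wild-type APAP livers and 35.4 and 29.6 in saline livers. Most of each sum was Pcna. Mki67, Ccnb1 and Pcna were higher in every treated liver than in both controls, Mcm2 was lower in every one, and the others overlapped. Mki67 had 3.002 and 2.77 CPM in knockout APAP livers, 2.71 and 1.77 in wild-type APAP livers and 0.32 and 1.08 in saline livers. Mcm2 had 2.14 and 1.04, 1.55 and 2.42, and 5.11 and 4.76 CPM in the same order. The part of dividing cells in the rise of Mthfd2 was not tested.

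Mthfd1, the cytosolic enzyme, had an FPKM of 23.4 and 21.1 in knockout APAP livers, 27.8 and 26.3 in wild-type APAP livers and 40.6 and 40.4 in saline livers. Here too the 3 groups did not overlap. The log2 difference of wild-type APAP from saline was -0.37 ± 0.13 (edgeR adjusted p = 0.11, 95% interval -0.69 to -0.06), and DESeq2 passed it (-0.39, adjusted p = 0.0271), as did total-count scaling in edgeR (-0.59, 0.0231). The Mthfd2 to Mthfd1 ratio of FPKM was 0.265 and 0.266 in knockout APAP livers, 0.199 and 0.183 in wild-type APAP livers and 0.00541 and 0.0106 in saline livers. Even after its rise Mthfd2 remained well below Mthfd1.

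**Figure D2:**
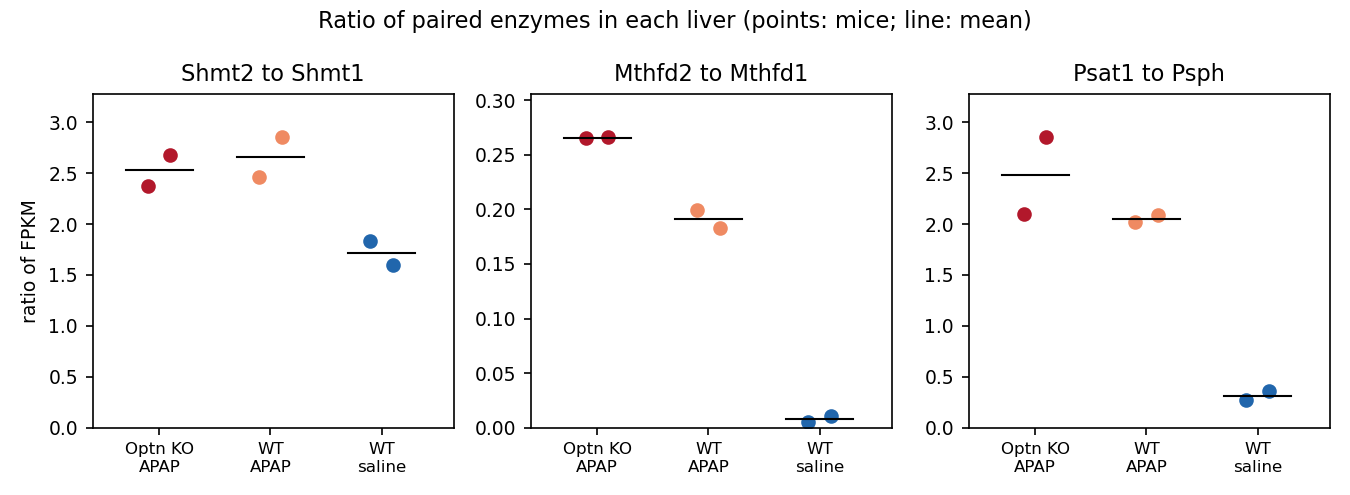
Ratio of FPKM within each liver for Shmt2 to Shmt1, Mthfd2 to Mthfd1 and Psat1 to Psph (linear axes from 0), with 1 point per mouse and a line at the mean of 2, for Optn knockout APAP, wild-type APAP and wild-type saline livers. All 3 ratios are higher in the 4 treated livers, and Mthfd2 to Mthfd1 is also higher in both knockout livers (0.265 and 0.266) than in both wild-type APAP livers (0.199 and 0.183).

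Aldh1l2 was near the limit of detection throughout. It had 71 and 52 counts in knockout APAP livers, 8 and 42 in wild-type APAP livers and 6 and 16 in saline livers, an FPKM of at most 0.11. The wild-type APAP livers overlapped the controls, while both knockout livers were above all 4 wild-type livers. No comparison passed in the fit without a filter, with log2 values of 1.29 ± 0.96 for knockout APAP over wild-type APAP (edgeR adjusted p = 0.858), 2.605 ± 1.01 for knockout APAP over saline (adjusted p = 0.168) and 1.32 ± 0.98 for wild-type APAP over saline (adjusted p = 0.551). Without wild-type APAP replicate 4 the last was -0.14. Its exons share 1056 of 7503 bases with D10Wsu102e on the other strand, which had 4653 and 5632 counts in knockout APAP livers, 7229 and 7363 in wild-type APAP livers and 799 and 941 in saline livers. Reads of the 2 genes could not be told apart in a count without strand, and their part in the Aldh1l2 counts was not tested.

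Start regions are shown for Psat1 and Mthfd2, which had the largest rises among the members that passed the filter. Phgdh, whose rise was larger in the fit without a filter, is not shown. Both hydroxymethyltransferases are shown as well. Their FPKM was lower in every treated liver than in both controls, but Shmt2 did not pass the test in wild type. What lies upstream of genes that were higher can thus be set beside what lies upstream of genes that were not. RefSeq's promoter table (GRCm38.p6) held 7 of the 8 genes, and the 250 bases before each start site are given 5′ to 3′ on the gene's own strand. Capitals mark CCAAT on either strand (ATTGG on the other), the core of the CCAAT box, which is bound by NF-Y. The regions are chr19:15925060-15925309 (Psat1), chr6:83317605-83317854 (Mthfd2), chr11:60811266-60811515 (Shmt1) and chr10:127522445-127522694 (Shmt2), all on the minus strand.
Psat1: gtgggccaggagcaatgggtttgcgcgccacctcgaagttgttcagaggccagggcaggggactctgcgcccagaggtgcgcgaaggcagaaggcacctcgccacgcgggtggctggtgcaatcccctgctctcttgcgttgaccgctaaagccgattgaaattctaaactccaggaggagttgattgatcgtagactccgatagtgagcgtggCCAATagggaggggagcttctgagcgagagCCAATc
Mthfd2: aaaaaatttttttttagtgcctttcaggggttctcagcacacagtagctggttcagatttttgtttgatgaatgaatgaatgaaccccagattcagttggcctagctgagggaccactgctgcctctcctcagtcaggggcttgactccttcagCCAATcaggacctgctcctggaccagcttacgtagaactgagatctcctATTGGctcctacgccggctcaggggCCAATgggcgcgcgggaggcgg
Shmt1: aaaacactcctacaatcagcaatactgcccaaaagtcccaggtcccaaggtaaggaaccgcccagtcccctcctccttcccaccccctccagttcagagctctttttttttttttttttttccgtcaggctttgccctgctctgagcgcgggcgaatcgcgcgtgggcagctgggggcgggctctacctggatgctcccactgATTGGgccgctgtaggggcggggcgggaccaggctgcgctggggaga
Shmt2: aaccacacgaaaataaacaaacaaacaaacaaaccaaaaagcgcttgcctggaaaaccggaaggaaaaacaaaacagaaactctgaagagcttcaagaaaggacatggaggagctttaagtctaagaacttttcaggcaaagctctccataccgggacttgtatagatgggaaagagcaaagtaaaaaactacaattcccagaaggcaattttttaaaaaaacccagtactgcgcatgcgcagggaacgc

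CCAAT occurred 3 times in the Mthfd2 region, at 96, 47 and 22 bases before the start site, and 2 times in that of Psat1, at 36 and 6 bases. Phgdh (193 and 23 bases) and Psph (78 and 48 bases) also held 2, Shmt1 (47 bases) and Mthfd1 (69 bases) held 1, and Shmt2 held 0. Psat1 has a second start site in the table, whose region held 0. Of all 32851 promoter entries, 33.8% held at least 1 such match, 10.1% at least 2 and 2.79% at least 3. The motif was picked after these regions had been read. The ATF4 and C/EBP composite motif TTNCATCA (either strand) was in none of the 8 entries of these genes, and 3.45% of all entries held it. The cAMP response element TGACGTCA (1.55% of entries) and the E-box CACGTG (6.02%) were likewise in none, which says only that these letters are not in these windows.

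Optn knockout livers after acetaminophen were compared with wild-type livers given the same dose, to see whether loss of the receptor changes the response. No difference was called among the 8 genes. EdgeR passed 0 of 6 tested genes, with 0 at an unadjusted p under 0.05, and 0.103% of all tested genes passed in either direction. DESeq2 also passed 0, with 2 at an unadjusted p under 0.05, where 2.54% of all genes passed. Limma passed 0, with 0 at an unadjusted p under 0.05, where 0.231% passed, and without a filter edgeR passed 0 of 8, where 0.136% of all genes passed. With a term for the library set it passed 0 of 6, against 0.0257% of all tested genes.

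The intervals below come from the fit without a term for the library set, with the spread taken from all 6 libraries. Psat1 differed by 0.31 ± 0.17 on the log2 scale (95% interval -0.11 to 0.73) and Mthfd2 by 0.16 ± 0.29 (-0.54 to 0.87). Both had a higher FPKM in each knockout liver than in each wild-type APAP liver. Shmt2 differed by -0.25 ± 0.12 (-0.54 to 0.03) and Mthfd1 by -0.31 ± 0.13 (-0.62 to 0.01), both with lower values in each knockout liver than in each wild-type liver. The share of all genes without overlap between genotypes was not computed. Such separation of 2 livers from 2, here and above, thus carries no weight of its own. Shmt1 differed by -0.18 ± 0.14 (-0.52 to 0.16) and Psph by 0.07 ± 0.20 (-0.42 to 0.56), with edgeR adjusted p for these 6 genes between 0.578 and 0.944. Phgdh overlapped between genotypes and differed by 0.16 ± 0.67 in the fit without a filter. The sign of Psph turned without knockout replicate 4 (-0.14), and that of Phgdh without knockout replicate 4 (-0.90) or wild-type APAP replicate 1 (-0.26). When a term for the library set was added, which rests on saline replicate 3 against 6, Psat1 became -0.08 ± 0.29 and Mthfd2 -0.74 ± 0.35. Each had an edgeR adjusted p of 0.9999, so no direction is given for either gene. The Mthfd2 value then lay outside its interval above, and the SEs of Shmt1 and Psph grew to 0.28 and 0.39.

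Knockout APAP livers were also set against saline wild-type livers, a comparison in which genotype and treatment cannot be told apart and which shares its controls with that of wild type. Psat1 was 24.4-fold, Mthfd2 20.0-fold and Psph 3.24-fold higher in knockout APAP livers, and Shmt1 stood at 0.478, Mthfd1 at 0.624 and Shmt2 at 0.701 of the saline level. All 6 tested genes passed in edgeR, 3 in each direction, where 20.3% of all tested genes passed, 12.2% upward and 8.05% downward. Psat1 and Mthfd2 again entered the test through the treated livers, so this count too carries no weight of its own. Without a filter 7 of 8 passed, 4 upward and 3 downward, where 9.1% of all genes did, 5.55% upward and 3.55% downward. A term for the library set left 3 that rose and 1 that fell, Shmt1, against 8.22% of all tested genes, 5.74% upward and 2.48% downward. Phgdh, in the fit without a filter, was higher by 5.16 ± 0.84 on the log2 scale (edgeR adjusted p = 0.00377, and 0.0691 once a term for the library set was added). That call also ended without knockout replicate 4 (4.12, adjusted p = 0.0551) and without saline replicate 3 (0.0684) or 6 (0.0674), and in limma on log2(FPKM + 0.5), where the value was 1.18 (adjusted p = 0.14).

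The calls of Shmt2 and Mthfd1 in this comparison depended on the fit. Shmt2 differed by -0.51 ± 0.12 on the log2 scale (edgeR adjusted p = 0.0306), and the adjusted p lay between 0.0531 and 0.167 whichever library was left out, and was similar with a term for the library set (0.164) or with only these 2 groups in the fit (0.0534). Mthfd1 differed by -0.68 ± 0.13 (adjusted p = 0.0187), which did not hold without saline replicate 3 (0.0951) or 6 (0.0666), without knockout replicate 5 (0.0749) or with a term for the library set (0.0928). Shmt1 differed by -1.06 ± 0.14 (adjusted p = 0.00689) and kept its call in all 15 alternatives, the highest adjusted p being 0.0421.

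**Figure D3:**
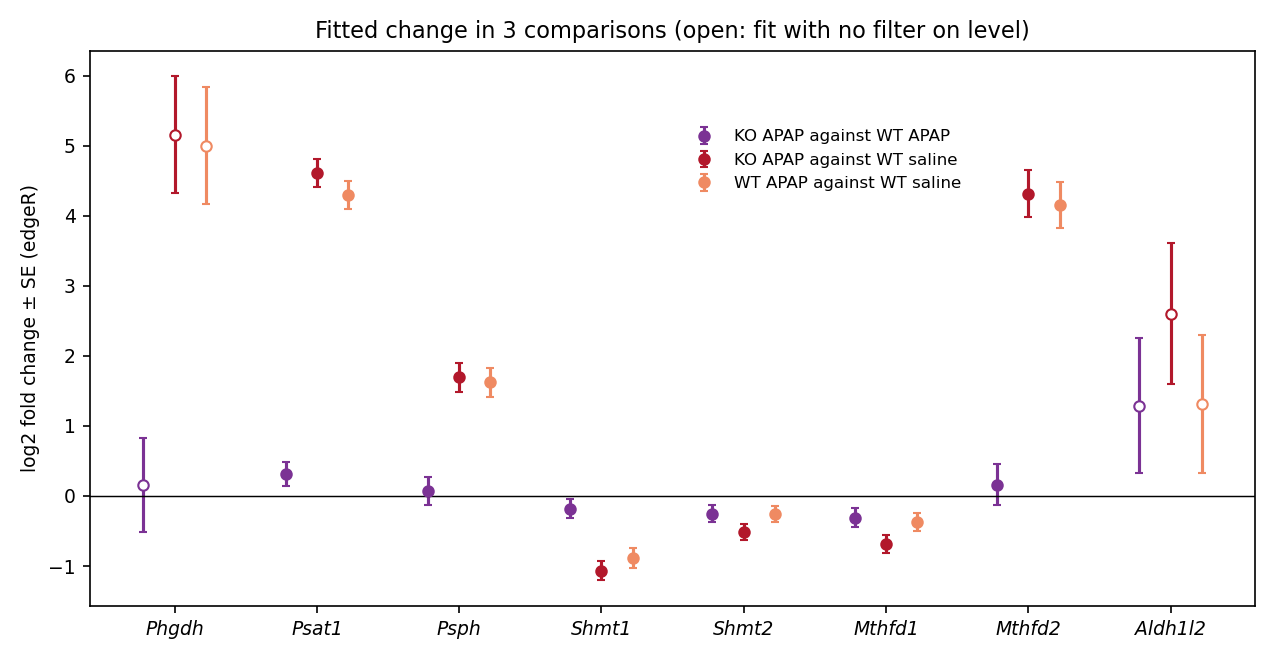
Fitted log2 fold change with its SE for the 8 genes in knockout APAP against wild-type APAP, knockout APAP against saline and wild-type APAP against saline livers (2 mice per group), where open points come from the fit without a filter on level. Phgdh, Psat1 and Mthfd2 lie between 4.16 and 5.16 against saline in both genotypes, and Psph at 1.62 and 1.696. The differences between genotypes lie between -0.31 and 0.31 except that of Aldh1l2 (1.29 ± 0.96). That of Phgdh also has a wide SE (0.16 ± 0.67).

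By level per length, the order of the 8 transcripts changed with treatment below the top. In saline livers Shmt2 (mean FPKM 71.8 ± 4.02, SD, n = 2) was followed by Shmt1 (41.9 ± 1.78) and Mthfd1 (40.5 ± 0.144), which did not differ beyond their spread, then by Psph (0.817 ± 0.00305), Mthfd2 (0.323 ± 0.146) and Psat1 (0.258 ± 0.0555), the last 2 within their spread, and by Phgdh (0.0207 ± 0.00384) and Aldh1l2 (0.0179 ± 0.00892), also within it. In wild-type APAP livers the order was Shmt2 (51.7 ± 1.06), Mthfd1 (27.0 ± 1.06), Shmt1 (19.6 ± 1.64), Mthfd2 (5.17 ± 0.513), Psat1 (4.49 ± 0.373), Psph (2.19 ± 0.134), Phgdh (0.659 ± 0.345) and Aldh1l2 (0.0426 ± 0.0404). Knockout APAP livers had the same order, from Shmt2 (44.4 ± 0.546) to Aldh1l2 (0.106 ± 0.00679), with Mthfd2 (5.92 ± 0.41) and Psat1 (5.69 ± 0.261) within their spread. Shmt2, Mthfd1 and Shmt1 thus stayed above the other 5 genes in every library, and the genes with the large relative rises remained the scarce ones. In bulk liver, fewer cells of a type and less RNA per cell cannot be told apart.

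Summed neutrophil markers were higher in every treated liver than in both controls, while markers of monocytes and Kupffer cells were less clearly apart. Among the neutrophil markers, Camp overlapped between treated and control livers. The 8 neutrophil markers were all detected and summed to 148 and 190 CPM in knockout APAP livers, 143 and 69.1 in wild-type APAP livers and 2.25 and 6.05 in saline livers. The 8 markers of monocytes and Kupffer cells summed to 369 and 274 CPM, 211 and 149, and 56.8 and 147 in the same groups. Of these, Chil3, Ly6c2, Ccr2 and Cd14 were higher in every treated liver than in both controls. Clec4f, Timd4, Vsig4 and Adgre1 lay between the controls in both wild-type APAP livers, above saline replicate 3 and below saline replicate 6. The part of these cell types in the rises of Psat1, Psph, Phgdh and Mthfd2 was not tested.

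The transcripts most like each member were sought among 8489 genes whose mean FPKM reached 1, as the smallest root mean square difference of centred log2(FPKM + 0.5) over the 6 libraries. Psat1 had Actg1 (0.13), Plk3 (0.132) and Mthfd2 (0.142) as its nearest. Mthfd2 had Sesn2 (0.121), Psat1 (0.142) and Slc10a6 (0.145), so Psat1 and Mthfd2 were each among the 3 nearest of the other. Psph was nearest to Cbr3 (0.0909), Zfp703 and Mark4, and Shmt1 to Fads6 (0.0679), Gtpbp8 and the hepatocyte transcription factor Foxa3. Shmt2 lay nearest to Cpne3 (0.0215), Mrps36 and Sgpp1, and Mthfd1 to Wrap53 (0.052), Ulk2 and Tmem102. Within the set, Shmt2 and Mthfd1 were the closest of all (0.0956), and Phgdh and Psph differed by 0.233 on this scale, on which low levels are compressed.

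Of 50 other genes of serine, glycine and folate metabolism, all 50 were in the table and 45 passed the filter. In wild-type APAP against saline livers 7 rose and 1 fell, with a median log2 fold change of 0.10 against 0.03 over all tested genes, a share of calls near the 14.3% of all tested genes. In knockout APAP against saline livers 8 rose and 2 fell, with a median of 0.07 against 0.00 over all genes. That share of calls was near the 20.3% of all tested genes. Under total-count scaling 6 rose and 5 fell in wild type, where 18.8% of all tested genes passed, 6.17% upward and 12.6% downward. In knockout APAP livers 5 rose and 8 fell, where 24.7% of all tested genes passed, 9.71% upward and 15% downward. The split of directions thus depends on the scaling. Between genotypes after acetaminophen edgeR passed 0 (0.103% of all tested genes), with 3 at an unadjusted p under 0.05. Limma passed 0 (0.231%), and DESeq2 passed 3 (2.54%). The counts depend on single libraries: in wild-type APAP against saline 1 passed without saline replicate 3, 2 without wild-type APAP replicate 1 and 5 without replicate 4. In knockout APAP against saline 2 passed without saline replicate 3, 5 without saline replicate 6, 2 without knockout replicate 5 and 6 without knockout replicate 4. Leaving out a library also lowered the share of all tested genes called, to between 6.42% and 18.9% in knockout APAP and between 4.23% and 10.8% in wild-type APAP against saline livers.

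A list of 8 genes held enzymes that can use serine and Cth, which acts on a product of it. Of these, 5 rose in knockout APAP and 4 in wild-type APAP livers against saline. Among all tested genes 12.2% rose in knockout APAP and 8.36% in wild-type APAP livers. Sds, the serine dehydratase that turns serine into pyruvate, had an FPKM of 216 and 366 in knockout APAP livers, 410 and 384 in wild-type APAP livers and 93.6 and 153 in saline livers. It rose in wild type by 1.90 ± 0.32 on the log2 scale (edgeR adjusted p = 0.0174). Its relative Sdsl rose by 0.87 ± 0.17, Agxt, the peroxisomal alanine-glyoxylate and serine-pyruvate aminotransferase, by 0.77 ± 0.14, and Cth, which releases cysteine from the serine-derived cystathionine, by 0.68 ± 0.13 (adjusted p 0.0224 to 0.0268). Cbs, which joins serine to homocysteine, rose in knockout APAP livers by 0.65 ± 0.16 (adjusted p = 0.0365) and had a value of 0.55 ± 0.16 in wild type (adjusted p = 0.0712). Sptlc1 and Sptlc2, the subunits that start sphingolipid synthesis from serine, did not pass, nor did Srr, the serine racemase.

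Among 8 transporters of serine and glycine, 6 were tested. Slc38a2, a neutral amino acid importer, had an FPKM of 32.5 and 36.1 in knockout APAP livers, 44.3 and 36.0 in wild-type APAP livers and 10.9 and 13.4 in saline livers, and rose in wild type by 1.94 ± 0.18 (edgeR adjusted p = 0.0039). Slc1a4, an exchanger of alanine, serine and cysteine, had 1.25 and 1.03 in knockout APAP livers, 2.27 and 2.42 in wild-type APAP livers and 0.77 and 0.97 in saline livers. It rose in wild type by 1.64 ± 0.23 (adjusted p = 0.0111), had a value of 0.57 ± 0.23 in knockout APAP against saline livers (adjusted p = 0.131), and differed between the treated genotypes by -1.07 ± 0.23 (edgeR adjusted p = 0.335, and 0.0034 in DESeq2). Sfxn1, the mitochondrial serine carrier, did not pass, with a value of -0.23 ± 0.12 in wild type.

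Of 14 other folate enzymes tested, 1 rose and 1 fell in wild type, where 8.36% of all tested genes rose and 5.92% fell. Aldh1l1, the abundant cytosolic relative of Aldh1l2, rose in wild type by 0.86 ± 0.13 (edgeR adjusted p = 0.0133), with an FPKM of 228 and 231 in knockout APAP livers, 316 and 310 in wild-type APAP livers and 187 and 213 in saline livers. It differed between treated genotypes by -0.48 ± 0.13 (edgeR adjusted p = 0.489, and 0.00642 in DESeq2). Fpgs, which adds the glutamate tail that keeps folate in cells, fell, with a log2 fold change of -0.66 ± 0.15 in wild type (adjusted p = 0.0407) and of -0.73 ± 0.15 in knockout APAP livers (adjusted p = 0.0245). Mthfd1l, the mitochondrial formate-releasing enzyme that follows Mthfd2, had an FPKM of 0.58 and 0.70 in knockout APAP livers, 0.54 and 0.47 in wild-type APAP livers and 0.33 and 0.68 in saline livers, and a value of 0.22 ± 0.41 in wild type (adjusted p = 0.755). Mthfd2l, a paralog known from adult tissues, was below the filter at 0.11 to 0.22 FPKM in every library.

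Glycine cleavage, folate transport, purine synthesis and lower glycolysis had 0 genes past the test in wild type of 5, 4, 5 and 3 tested (edgeR). Of all tested genes 14.3% passed in that comparison, so few calls were to be looked for in lists of this size. In knockout APAP against saline livers, where 20.3% of all tested genes passed, Gldc of glycine cleavage rose by 0.90 ± 0.20 (edgeR adjusted p = 0.0287). The folate carrier Slc19a1 was higher by 0.70 ± 0.16 (adjusted p = 0.0321), and Gart of purine synthesis fell, at -0.61 ± 0.16 (adjusted p = 0.0422). In wild type Slc19a1 had a value of -0.10 ± 0.16 (edgeR adjusted p = 0.719). Between treated genotypes it differed by 0.80 ± 0.16 (edgeR adjusted p = 0.326, and 0.00109 in DESeq2). DESeq2 passed Gnmt, Gart, Atic, Cbs and Slc25a38 in wild type besides the 8 of edgeR. A term for the library set left 2 of the 45 genes past the test in knockout APAP against saline livers, where 8.22% of all tested genes passed.

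**Figure D4:**
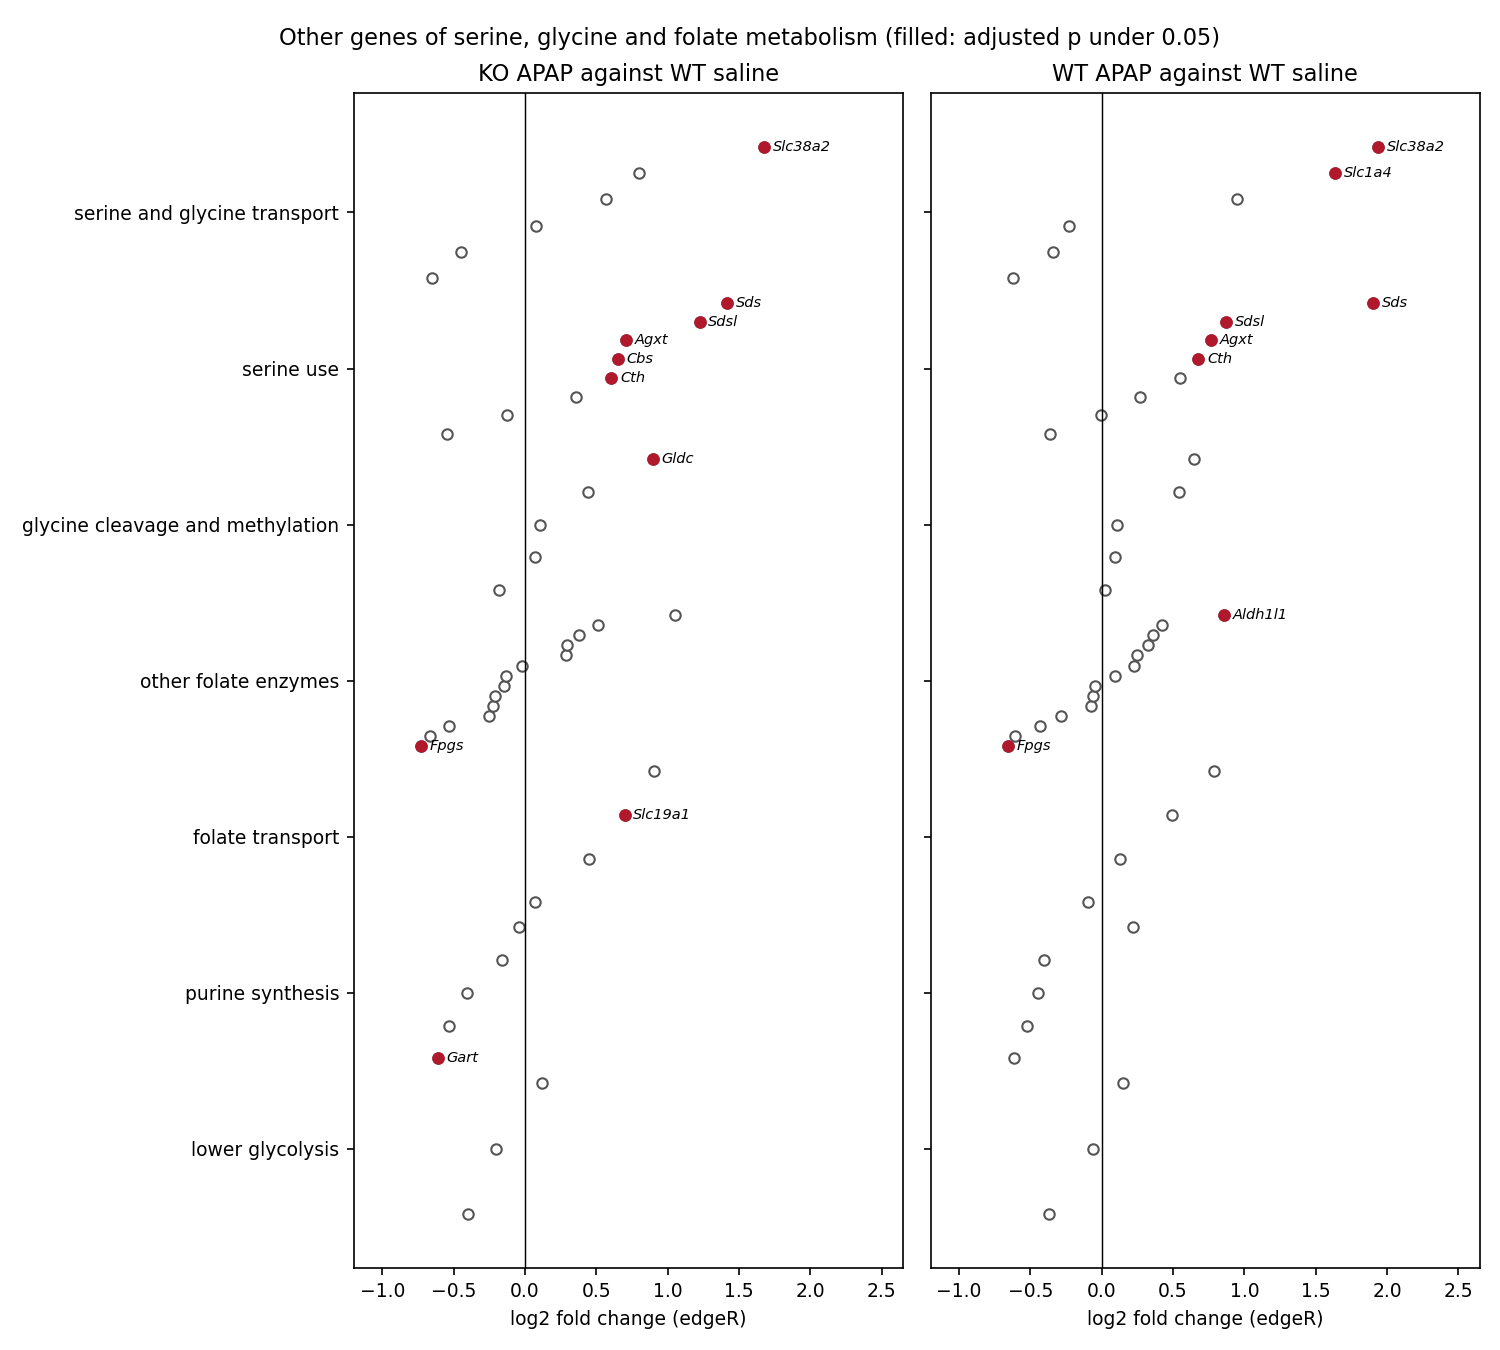
Log2 fold change (edgeR) of the 45 tested pathway genes, by role, in knockout APAP against saline and wild-type APAP against saline livers, with filled, named points at an adjusted p under 0.05. Slc38a2, Sds, Sdsl, Agxt, Cth and Fpgs are filled in both panels, and most other points lie within 1 log2 unit of 0.

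Atf4, the factor known to act on Psat1 and Mthfd2, had an FPKM of 61.3 and 120 in knockout APAP livers, 113 and 94.9 in wild-type APAP livers and 26.0 and 37.8 in saline livers, a rise in wild type of 1.92 ± 0.35 (log2, edgeR adjusted p = 0.0215). Asns, asparagine synthetase and another ATF4 target, had 8.38 and 4.90 in knockout APAP livers, 3.50 and 5.53 in wild-type APAP livers and 0.557 and 0.560 in saline livers. Knockout replicate 4 had the lowest Atf4 of the treated livers and the highest Asns, Phgdh, Psph and Mthfd2. Knockout replicate 5 had the highest Atf4 and the highest Psat1. Ppp1r15a, of the integrated stress response list, was lowest of the treated livers in knockout replicate 4. Besides Asns, the tested genes Trib3, Sesn2, Atf5, Eif4ebp1 and Nupr1 of that list were highest in that liver, and Chac1 was neither. The order of single livers was not tested. Of the 11 genes of the integrated stress response list with a single entry, 9 were tested and 8 rose in each genotype against saline. Among all tested genes 12.2% rose in knockout APAP and 8.36% in wild-type APAP livers. Nupr1 lay under 0.5 FPKM in saline (0.31 and 0.33) and entered the test through the treated livers. The list was also written with earlier results of these data known, so this count carries no weight of its own. Myc, which in human cancer cells is known to raise serine and folate enzymes, had 26.8 and 32.5 in knockout APAP livers, 21.7 and 14.8 in wild-type APAP livers and 1.30 and 4.48 in saline livers, and rose in wild type by 2.87 ± 0.57 (adjusted p = 0.0269).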

How the data were processed

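Poly(A) RNA of 6 livers was sequenced as paired ends, per the labels' protocols, which also mention adipose RNA although the tissue label is liver. The deposited table holds raw counts (whole numbers, not scaled) and FPKM values for each gene, per the file headers; a count of 0 is listed at 0.0001. Bowtie 0.12.2 and mm8 are named in the submitters' processing notes; the counter is not given in the sources used here. Coordinates equal those of GENCODE M21 (GRCm38) for 51991 of 55144 shared genes (94.3%), so GRCm38 is used.

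Counts were tested with edgeR 4.0.16 (quasi-likelihood, TMM scaling, 3 group means over 6 libraries, 3 residual and 2.93 prior degrees of freedom, common biological coefficient of variation 0.277), with Benjamini-Hochberg adjustment over 11677 genes. SEs are the log2 fold change over the square root of F. DESeq2 1.42.0 and limma 3.58.1 served as alternatives, and the functions were tested on simulated data. Members and lists were chosen with earlier results of these data known. Named genes were all members, up to 4 called genes with the smallest p per list and comparison, Atf4, Myc and the paralogs of members, and the 3 nearest genes of each called member. Asns, Atf5, Eif4ebp1, Nupr1, Chac1, Cbs, Srr, Sptlc1, Sptlc2, Sfxn1 and the genes called only by DESeq2 were added after their values were seen. The library set was known from earlier results of these data. A total of 138 of 139 list entries matched; Ddit3 has 2 entries and was left out. Intervals cover counting error only where so stated.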

Additional observations from a re-analysis of the deposited data

How the results depend on the processing

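Over the alternatives run, the rises of Psat1 and Mthfd2 against saline kept their direction and call in both genotypes, and the call of Shmt1 held in knockout but not always in wild type. Among the 8 genes, edgeR at a mean FPKM of at least 5, which leaves 3 of them to test, passed 1 in wild-type APAP against saline and 3 in knockout APAP against saline livers, where 19.2% and 24.3% of all genes passed. Leaving out a library gave 2 to 4 in wild type, 4 to 5 in knockout against saline and 0 to 0 between treated genotypes, against 4.23% to 10.8%, 6.42% to 18.9% and 0.00856% to 0.24% of all genes. Of the 45 pathway genes, leaving out a library gave 1 to 7, 2 to 8 and 0 to 0 in the same order, DESeq2 passed 13 in wild type (26.6% of all genes) and 3 between genotypes (2.54%), and a term for the library set left 2 in knockout against saline.

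Directions that reversed were those between treated genotypes of Psat1 (-0.077) and Mthfd2 (-0.74) when a term for the library set was added, of Psph without knockout replicate 4 (-0.14, and up to 0.25 without other libraries), and of Phgdh without knockout replicate 4 (-0.90) or wild-type APAP replicate 1 (-0.26, and up to 0.76 without other libraries), and that of Aldh1l2 in wild type without wild-type APAP replicate 4 (-0.14, and up to 2.03 without other libraries). The cause was not tested. Fits of Phgdh and Aldh1l2 without a filter were added after seeing the data. Comparing treated libraries with the control of their own set is the same model as the set term. No paired analysis was possible because the groups compared share at most 1 replicate number. Low counts limit Phgdh and Aldh1l2.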
